A study of Mus musculus with 7 samples.

Results

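Ephrins and their Eph receptors, Slits and their Robo receptors, and netrins with theirs are the guidance systems described here in the apical ectodermal ridge (AER) of the embryonic mouse limb. The members were chosen by gene name from the array's annotation: 39 genes carried by 53 probes, of 36373 names on the array. Not all of these names were matched to a RefSeq gene. The members comprise 5 ephrin-A and 3 ephrin-B ligands, 9 EphA and 5 EphB receptors, 3 Slits, 3 Robos, 3 netrins, 2 netrin-G proteins and 6 netrin receptors. The AER is the thickened epithelium along the distal rim of the limb bud, and it was microdissected from forelimbs of C57/Bl6 embryos at embryonic day 11.5. The comparison tissue was surface ectoderm of the posterior limb, from embryos of the same strain and age. The labels do not say whether this means the posterior side of the forelimb or the hindlimb, and in the second case limb and tissue cannot be told apart. The labels give no allele or treatment for either group. There were 3 AER and 4 ectoderm replicates, each a pool from 2 to 3 mice and each hybridised to its own 1-colour Agilent array. The study set out to find genes that mark the AER.

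Ephrins are ligands that stay attached to the cell surface, the A class by a lipid anchor and the B class by a membrane-spanning segment, so they signal between cells that touch. Eph receptors are receptor tyrosine kinases, and binding sends signals into both cells, which often pushes the cells or their processes apart and so sharpens tissue borders. Slits are secreted proteins that repel cells and axons through Robo receptors, whereas netrins are secreted relatives of laminins that attract through Dcc and neogenin and repel through Unc5 receptors. In the limb bud these systems are best known from the mesenchyme and from the motor axons that grow into it.

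Levels are given as log2 of the scanner's processed signal relative to the 75th percentile of the same array, so that 0 is the 75th percentile and 1 unit is a 2-fold difference within a probe. Levels of different genes come from different probes and are not set against each other. Testing required a signal that the scanner software flags as well above background on 3 or more of the 7 arrays, and 34 of the 39 genes met it. A gene passed the test at an adjusted p under 0.05, from limma with Benjamini-Hochberg adjustment over all 20826 genes tested. The 5 members not tested were the receptors Epha6, Epha10 and Unc5d, the basement membrane netrin Ntn4 and the netrin-G protein Ntng2. Their single probes were not well above background on any array. As replicates are pools whose origin is not described further, p-values measure the spread between these pools. In pooled tissue, fewer cells of a type and less RNA per cell cannot be told apart.

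The tissue labels were set against marker genes. These lists were chosen with earlier results of these data known, so they are no independent check of the labels. Of 14 tested genes known from the AER, 13 were higher in the AER, among them the transcription factor genes Dlx5, with a difference of 3.44, and Sp9, which was not well above background in ectoderm and was at least 6.58-fold higher, and the hyaluronan receptor gene Cd44, at 3.28. Of 20 epithelial genes, 17 were also higher, with St14 at 3.54, Tfap2c at 3.12 and Cldn7 at 2.61, and their mean level ran from 2.24 to 2.51 on AER arrays and from 0.32 to 0.90 on ectoderm arrays. Genes of other limb tissues were lower in the AER: 14 of 18 limb mesenchyme genes (among them Dcn, Lum and Osr2), all 11 tested muscle progenitor genes (among them Myod1, Pax3 and Lbx1) and 6 of 8 tendon and cartilage genes (among them Scx, Kera and Sox9). Their mean levels were 1.45 to 1.77 against 4.06 to 4.41 for mesenchyme, -4.11 to -2.48 against 0.87 to 1.92 for muscle, and -1.23 to -0.89 against 1.93 to 2.13 for tendon and cartilage, AER against ectoderm. Well above background on all AER arrays were 14 of the mesenchyme, 3 of the muscle and 5 of the tendon and cartilage genes. The AER means thus include background signal. The muscle factor Myf5 and the tendon and cartilage genes Tnmd and Matn1 were not tested for want of signal. Of 9 neural, Schwann and melanoblast genes, Tubb3 and the melanoblast gene Dct were higher and Gap43 was lower. Under limma 0 of 12 endothelial, 0 of 10 erythroid and 0 of 9 macrophage genes passed, and 1, 2 and 1 of them had an unadjusted p under 0.05. Ectoderm replicate 3 stood apart within its group, with the highest mean of the AER genes (0.44, against -1.05 to -0.63) and the lowest mean of the muscle genes (0.87, against 1.74 to 1.92). All 7 arrays shared 1 slide and 1 scan time.

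Of the 34 tested members, 7 rose in the AER, 10 fell and 17 missed the threshold. Higher were Epha2, Unc5b, Epha8, Slit3, Epha4, Efna1 and Slit2. Lower were Ntn1, Robo2, Ephb1, Slit1, Ntn3, Unc5a, Robo1, Epha7, Ntng1 and Efnb3. Thus 50% of the tested members passed, against 15.7% of all genes tested. In the higher direction the shares were 20.6% of members and 7.03% of all genes, and in the lower direction 29.4% and 8.65%. As the members were chosen with earlier results of these data known, these shares are a description only. Of the 17 members that passed, 14 differed at least 2-fold, 5 of them higher and 9 lower. The share of all genes past the threshold that differ as much was not counted, so these counts show no trait of the members. The 3 AER arrays lay wholly above or wholly below the 4 ectoderm arrays for 21 tested members, or 61.8%, where this held for 30.4% of all genes. The median difference was -0.29 over the tested members and -0.08 over all genes. Ligands and receptors both split: 3 ligands were higher, 5 lower and 6 not past, while 4 receptors were higher, 5 lower and 11 not past.

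These directions are relative to the 75th percentile of each array. Centring on the 20 epithelial genes in its place lowers every gene's difference by 1.78, so that any smaller rise turns negative by construction, as for Efna1, Epha4, Epha8, Slit2 and Slit3, while Epha2 stayed higher. Unc5b then stood at 0.61 with a limma adjusted p of 0.112. The same centring put 1 member higher and 29 lower, and 96.4% of all genes past the threshold. The slide held the arrays in 2 rows, with both groups in each. With row as a block 16 of the 17 calls were kept. Within row 1 and row 2 alone, where 1 group had a single array, fewer were. The groups do not overlap for any of the 17, so their direction within a row was fixed in advance and is no check. Efna1, Efnb3, Epha4, Ntng1 and Slit2 passed in neither row alone.

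**Figure D1:**
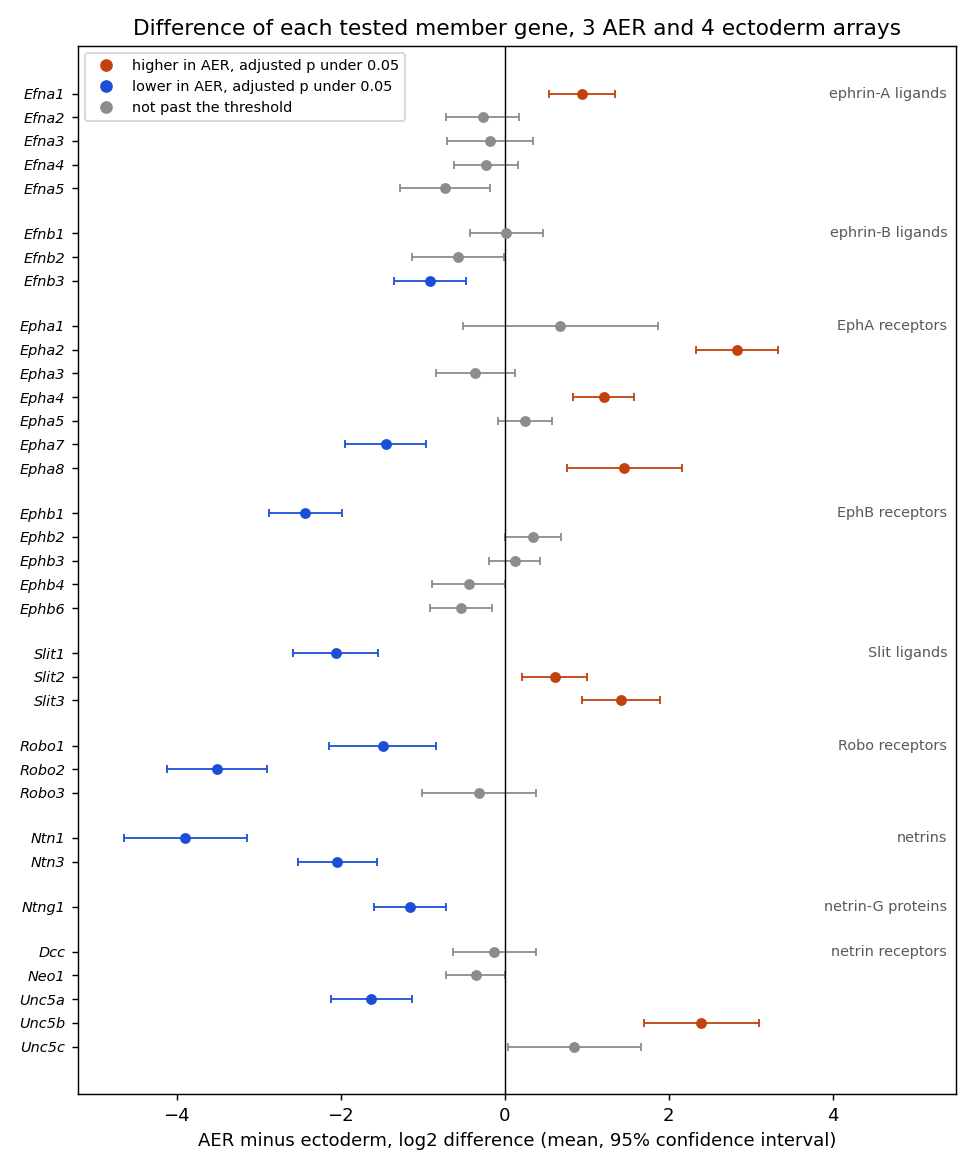
The difference between AER and ectoderm is plotted for each of the 34 tested member genes, as the mean with its 95% confidence interval on the log2 scale, by family. The 7 genes in orange lay above 0 and the 10 in blue below it with adjusted p under 0.05, from Epha2 at 2.84 to Ntn1 at -3.89. Under centring on epithelial genes each point would lie 1.78 lower, which turns Efna1, Epha4, Epha8, Slit2 and Slit3 negative.

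Among the ephrin-A ligands Efna1 was the one that passed. Efna1, the ephrin bound by Epha2 among other EphA receptors, had log2 levels of 3.14, 2.74 and 3.05 on AER replicates 1 to 3 and of 1.73, 2.24, 2.06 and 2.11 on ectoderm replicates 1 to 4. The groups did not overlap, and the level was 1.92-fold higher in the AER (95% interval 1.45 to 2.54, limma adjusted p = 0.00769), a direction that turned to -0.84 under epithelial centring. Efna4 lies close to Efna1 on chromosome 3, as does Efna3. Its levels were 3.25, 2.76 and 2.93 in the AER and 3.04, 3.13, 3.41 and 3.22 in ectoderm. The groups overlapped, with a difference of -0.22 and an adjusted p of 0.403. Efna3 had levels of -0.22, -1.05 and -0.69 in the AER and -0.52, -0.82, -0.29 and -0.26 in ectoderm, again overlapping, with a difference of -0.18. A test of whether Efna1 differed from its neighbours was not made.

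Efna5, a ligand used in the mapping of axons, had levels of 1.80, 1.82 and 2.03 in the AER and 2.34, 2.95, 2.13 and 3.01 in ectoderm. Every AER array lay below every ectoderm array, yet the difference of -0.73 missed the threshold (95% interval -1.28 to -0.18, limma adjusted p = 0.0788). It passed, at -0.89 with adjusted p = 0.0337, without ectoderm replicate 3. Efna2 had levels of 1.60, 0.96 and 1.62 in the AER and 1.62, 1.57, 1.84 and 1.62 in ectoderm, and the groups overlapped around a difference of -0.27.

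The ephrin-B ligands have a cytoplasmic tail that can signal in the cell that carries them. Efnb3 gave 3.63, 3.08 and 3.59 on the AER arrays and 4.24, 4.48, 4.11 and 4.55 on the ectoderm arrays. The groups did not overlap, and Efnb3 was 1.88-fold lower in the AER (95% interval 1.39 to 2.56, limma adjusted p = 0.0137). With the replicate number as a block Efnb3 missed the threshold. Efnb2, which in vessels marks arteries, gave 2.75, 2.35 and 2.66 in the AER and 3.23, 3.52, 2.53 and 3.36 in ectoderm. Only ectoderm replicate 3 fell within the AER range, and the difference of -0.57 had an adjusted p of 0.157 with all arrays and of 0.0257, at -0.78, without that array. Efnb1, the X-linked ephrin, gave 5.25, 5.07 and 5.11 in the AER and 4.66, 5.11, 5.37 and 5.34 in ectoderm. Its difference of 0.02 had a 95% interval from -0.42 to 0.47, so a change of up to about that size in either direction was within its error.

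Of the EphA receptors, Epha2 had the largest difference. Epha2 is a receptor found in many epithelia. Its processed signals were 3507, 6845 and 5023 on the AER arrays and 509, 701, 596 and 538 on the ectoderm arrays. As log2 levels these were 3.36, 3.60 and 3.68 against 0.31, 0.66, 1.21 and 0.64. The groups lay far apart, with ectoderm replicate 3 the highest of its group, and Epha2 was 7.16-fold higher in the AER (difference 2.84 ± 0.22 SE, 95% interval of the fold 5.07 to 10.1, limma adjusted p = 7.4e-05). Without ectoderm replicate 3 the difference was 3.01. The probe lies at chr4:140885139-140885198 on the plus strand of mm9, and its first 30 of 60 bases are shown since the result rests on this one probe.
Epha2 probe: agcccctttggacaaatgtcgctgtcagtg

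Epha4 and Epha8 rose in the AER as well, though both turned negative, to -0.58 and -0.32, under epithelial centring. Epha4, which in the limb is known for steering motor axons, had levels of 2.99, 3.15 and 2.93 in the AER and 2.03, 1.87, 1.53 and 1.84 in ectoderm. The groups did not overlap and the level was 2.31-fold higher (95% interval 1.79 to 2.98, limma adjusted p = 0.00135). Epha8 had levels of 0.57, 0.03 and 0.37 in the AER and -0.86, -1.27, -0.53 and -1.88 in ectoderm. Its ectoderm arrays spread over more than 1 unit but stayed below the AER, with a 2.75-fold difference (95% interval 1.69 to 4.48, adjusted p = 0.0137).

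Epha7 went the other way. Epha7 has a full-length form and shorter forms without the kinase, and the array carries 3 probes for it. The probe annotated to transcript variant 1 gave -1.29, -0.88 and -0.89 in the AER and 0.47, 0.64, -0.06 and 0.68 in ectoderm. On it every AER array was below every ectoderm array, and the level was 2.73-fold lower in the AER (difference -1.45 ± 0.22 SE, 95% interval of the fold 1.94 to 3.85, limma adjusted p = 0.0024), with a difference of -0.89 where the gene's tested probes were averaged. A probe annotated to transcript variant 2 gave -0.72, -0.85 and -0.58 in the AER and -0.27, -0.43, -0.50 and -0.39 in ectoderm. Its groups did not overlap either, but the difference was -0.32 and missed the threshold over all probes (limma adjusted p = 0.176). The remaining variant 2 probe was above background on 1 ectoderm array and on none of the AER arrays, and was not tested. That the probes of Epha7 differ in size of change was not tested. The first 30 bases of each are given below, since the size and call for this gene depend on which probe is read.
Epha7 variant 1 probe, chr4:28891069-28891128, plus strand, mm9: tggccatcaaaagaagatcatgagcagcat
Epha7 variant 2 probe, tested, chr4:28869764-28869823, plus strand, mm9: tgtcatcataattgctgtagtggctgtagc
Epha7 variant 2 probe, near background, chr4:28873570-28873629, plus strand, mm9: cagttaggctgcagtgtaaatatataaaga

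Epha1, Epha3 and Epha5 did not pass. Epha1, a receptor of epithelia, had levels of 2.12, 2.68 and 0.13 in the AER and 0.69, 1.17, 1.05 and 0.95 in ectoderm. AER replicates 1 and 2 lay above all ectoderm arrays and AER replicate 3 below them, so that the difference of 0.68 came with a 95% interval from -0.50 to 1.87 (adjusted p = 0.399). Without AER replicate 3 it was 1.44 with a limma adjusted p of 0.0064, so this 1 array decided the call. Epha3 gave -0.89, -0.72 and -0.83 in the AER and -0.21, -0.26, -1.01 and -0.35 in ectoderm, a difference of -0.36 with ectoderm replicate 3 below the AER arrays and the others above them. Epha5 gave 4.58, 4.48 and 4.40 in the AER and 4.07, 4.40, 4.24 and 4.24 in ectoderm. Its difference of 0.25 missed the threshold here and passed at 0.65 (adjusted p = 0.0203) in the authors' processed values.

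Of the EphB receptors Ephb1 passed. Its signals were 25.5, 50.9 and 31.8 on the AER arrays, of which 2 were above background, and 196, 228, 82.4 and 164.5 on the ectoderm arrays, all above background. As log2 levels these were -3.74, -3.47 and -3.63 against -1.06, -0.96, -1.64 and -1.07. Ephb1 was thus 5.38-fold lower in the AER (difference -2.43 ± 0.19 SE, 95% interval of the fold 3.96 to 7.32, limma adjusted p = 8.8e-05). With the normexp background correction and quantile normalization the difference was -1.26.

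The other 4 EphB receptors did not pass, and their differences were small beside that of Ephb1. Ephb3 had levels of 6.20, 6.09 and 6.10 in the AER and 5.85, 6.11, 6.02 and 6.05 in ectoderm, with a difference of 0.12 and a 95% interval from -0.19 to 0.43. Ephb2 had levels of -0.73, -0.73 and -0.62 in the AER and -0.92, -1.22, -0.88 and -1.16 in ectoderm, without overlap, but at a difference of 0.35 its adjusted p was 0.155. Both of these passed in the authors' processed values, at 0.60 for Ephb3 (adjusted p = 0.0381) and 0.46 for Ephb2 (adjusted p = 0.0306), and both turned negative under epithelial centring. Ephb4, which in vessels marks veins, had levels of 3.45, 2.97 and 3.57 in the AER and 3.48, 3.78, 3.86 and 3.94 in ectoderm. Its groups overlapped by 1 AER array, and the difference was -0.44. Ephb6, a receptor whose kinase is inactive, had levels of 1.83, 1.81 and 1.53 in the AER and 2.24, 2.23, 2.02 and 2.52 in ectoderm. No AER array reached the ectoderm range, and the difference of -0.53 came close to the threshold (limma adjusted p = 0.0666), while the gene's other probe gave 0.28 and overlapped between groups. Ephb2 lies near Epha8 on chromosome 4, and Ephb6 near Epha1 on chromosome 6.

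Over the whole Eph and ephrin family, 4 of 20 tested genes were higher, 3 were lower and 13 did not pass. Among all genes tested, 7.03% were higher and 8.65% lower. Of the 4 family members that were higher, the EphA class held 3.

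**Figure D2:**
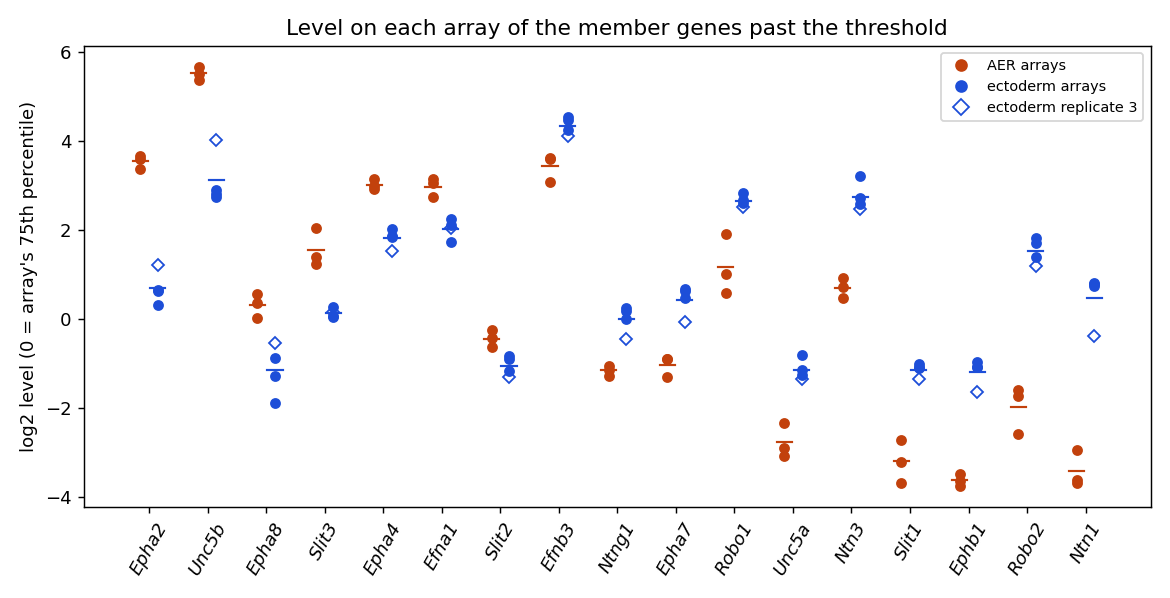
Log2 levels on each of the 7 arrays (0 is the array's 75th percentile) are plotted for the 17 member genes that passed the test, with bars at the group means. The 3 AER arrays (orange) and the 4 ectoderm arrays (blue) do not overlap for any of the 17. Ectoderm replicate 3 (open diamond) is the ectoderm array nearest to the AER for 13 of the 17. The same count over all genes was not made. As whole arrays, ectoderm replicate 3 correlated with AER replicates 1 to 3 at 0.9655, 0.9516 and 0.9679. The other ectoderm arrays reached at most 0.9552, 0.9468 and 0.9583, so this nearness is not particular to the members.

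The Slit ligands split by gene. Slit3 had levels of 1.40, 2.04 and 1.24 on the AER arrays and 0.07, 0.05, 0.16 and 0.27 on the ectoderm arrays, which lay close together. It was 2.68-fold higher in the AER (95% interval 1.93 to 3.71, limma adjusted p = 0.00207), at -0.36 under epithelial centring. Slit1 had levels of -3.20, -2.72 and -3.67 in the AER and -1.01, -1.10, -1.35 and -1.08 in ectoderm. It was 4.17-fold lower in the AER (95% interval 2.92 to 5.96, adjusted p = 0.000465), and its difference of -2.06 was -1.09 with normexp and quantile normalization. Slit2 had levels of -0.63, -0.24 and -0.43 in the AER and -1.15, -0.90, -1.29 and -0.84 in ectoderm. Its 1.53-fold rise (95% interval 1.16 to 2.01) passed narrowly at an adjusted p of 0.0462, and it did not keep that call under 18 of 22 alternative settings.

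Both Robo receptors with clear signal were lower in the AER. Robo2 had signals of 57.4, 170.1 and 129.7 on the AER arrays and 1345, 1583, 585 and 916 on the ectoderm arrays. Its log2 levels were -2.57, -1.73 and -1.60 against 1.72, 1.83, 1.19 and 1.41, with no array of one group near the other group. Robo2 was 11.3-fold lower (difference -3.50 ± 0.27 SE, 95% interval of the fold 7.42 to 17.3, limma adjusted p = 7.1e-05), and at -2.75 with normexp and quantile normalization. Its other probe gave levels of -1.47, -1.32 and -1.64 in the AER and 1.15, 0.56, 0.41 and 0.84 in ectoderm. That probe also passed, at -2.22 ± 0.20 SE (adjusted p over all probes = 0.000167), so that direction and call did not rest on one probe while the size did. The first 30 bases of each probe follow.
Robo2 probe with the larger difference, chr16:73894653-73894712, minus strand, mm9: caaatctgtttgacccattttgaatgagta
Robo2 probe with the smaller difference, chr16:73897261-73897318, minus strand, mm9: gccaatgaccttctcgacattggatatgtg

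Robo1, the neighbour of Robo2 on chromosome 16, had levels of 0.58, 1.91 and 1.03 on the AER arrays and 2.60, 2.83, 2.52 and 2.69 on the ectoderm arrays. The AER arrays varied more than the ectoderm arrays (SD 0.67 against 0.13) but stayed below them, and Robo1 was 2.80-fold lower (95% interval 1.79 to 4.40, limma adjusted p = 0.00862). Robo3, which commissural axons use when they cross the midline, was above background on 2 AER and 2 ectoderm arrays, with levels from -4.86 to -3.62 over all 7, and the difference of -0.31 did not pass. Of the 6 Slit and Robo genes, 2 were higher and 3 lower in the AER, beside 7.03% and 8.65% of all genes tested.

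Both tested netrins were lower in the AER. Ntn1, the classical secreted netrin, gave signals of 26.8, 73.9 and 32.1 on the AER arrays, of which 2 were above background, and 714, 764, 198 and 575 on the ectoderm arrays. As log2 levels these were -3.67, -2.93 and -3.62 against 0.80, 0.78, -0.37 and 0.74. The groups were separated by more than 2 units even at ectoderm replicate 3, the lowest of its group, and Ntn1 was 14.8-fold lower (difference -3.89 ± 0.33 SE, 95% interval of the fold 8.85 to 24.9, limma adjusted p = 0.00011). Without ectoderm replicate 3 the difference was -4.18, and with normexp and quantile normalization it was -2.58. The other Ntn1 probe had levels of -4.75, -4.24 and -4.08 in the AER and -1.08, -1.80, -2.03 and -1.54 in ectoderm, a difference of -2.74 ± 0.26 SE that also passed (adjusted p over all probes = 0.00019). The first 30 bases of both are given since they agree in direction at different sites.
Ntn1 probe with the larger difference, chr11:68022986-68023045, minus strand, mm9: atgaatatatttaatgacatggagaaagtt
Ntn1 probe with the smaller difference, chr11:68040053-68040112, minus strand, mm9: actgtgattcctattgcaaggcctccaaag

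Ntn3 had levels of 0.73, 0.47 and 0.92 on the AER arrays and 3.21, 2.60, 2.47 and 2.72 on the ectoderm arrays. It was 4.12-fold lower (95% interval 2.94 to 5.75, limma adjusted p = 0.000345), with a gap of more than 1 unit between the groups. Ntng1 encodes a lipid-anchored netrin-G, which does not use the classical netrin receptors. The probe that represents it, annotated to a cDNA record of its own, gave -1.13, -1.27 and -1.04 in the AER and 0.01, 0.19, -0.44 and 0.24 in ectoderm, a 2.22-fold lower level (95% interval 1.63 to 3.01, adjusted p = 0.00447). Another Ntng1 probe had levels of -4.04, -3.15 and -3.86 in the AER and -2.18, -1.75, -3.84 and -1.88 in ectoderm. On it ectoderm replicate 3 fell among the AER arrays, and the difference of -1.27 did not pass (adjusted p over all probes = 0.119). The last Ntng1 probe was not above background on any array.

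Of the 5 netrin receptors tested, Unc5b was higher in the AER, Unc5a was lower and Dcc, Neo1 and Unc5c did not pass. Unc5b, a repulsive netrin receptor also known from blood vessel tips, had signals of 15599, 28603 and 16320 on the AER arrays and 2734, 3339, 4191 and 2416 on the ectoderm arrays. Its log2 levels were 5.52, 5.67 and 5.38 against 2.74, 2.91, 4.03 and 2.81, with ectoderm replicate 3 well above the other ectoderm arrays and still below the AER. Unc5b was 5.27-fold higher (difference 2.40 ± 0.31 SE, 95% interval of the fold 3.24 to 8.58, limma adjusted p = 0.0011), and at 2.70 without ectoderm replicate 3. Unc5a had levels of -3.07, -2.33 and -2.88 in the AER and -1.26, -1.15, -1.33 and -0.80 in ectoderm. It was 3.08-fold lower (95% interval 2.19 to 4.35, limma adjusted p = 0.00133), a difference of -1.63 that was -1.06 with normexp and quantile normalization.

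Unc5c had levels of 1.85, 1.71 and 2.24 in the AER and 0.30, 0.88, 1.98 and 1.16 in ectoderm. As for Unc5b, ectoderm replicate 3 was the highest ectoderm array, and here it lay within the AER range. The difference of 0.85 had an adjusted p of 0.146 with all arrays and of 0.0221, at 1.15, without ectoderm replicate 3, while epithelial centring turned it to -0.93. Its other probe gave 1.02 and did not pass either. Neo1, which encodes neogenin, a receptor of netrins and of repulsive guidance molecules, had levels of 1.78, 2.03 and 1.75 in the AER and 2.07, 2.37, 2.03 and 2.36 in ectoderm. The groups lay side by side without overlap, and the difference of -0.35 missed the threshold (adjusted p = 0.177) but passed at -0.58 (adjusted p = 0.0245) in the authors' processed values.

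Dcc, the attractive netrin receptor, cannot be read with confidence from this array. Its 1 tested probe is placed on chromosome 7 in the array's annotation, whereas its other 2 probes lie on chromosome 18, where RefSeq also places the gene, and were not above background on any array. The tested probe gave 4.98, 4.75 and 5.39 in the AER and 5.16, 4.77, 5.52 and 5.21 in ectoderm, an overlapping range with a difference of -0.12. Of the 8 netrin and netrin receptor genes tested, this one included, 1 rose in the AER, 4 fell and 3 missed the threshold. The shares of all genes tested were 7.03% higher and 8.65% lower.

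**Figure D3:**
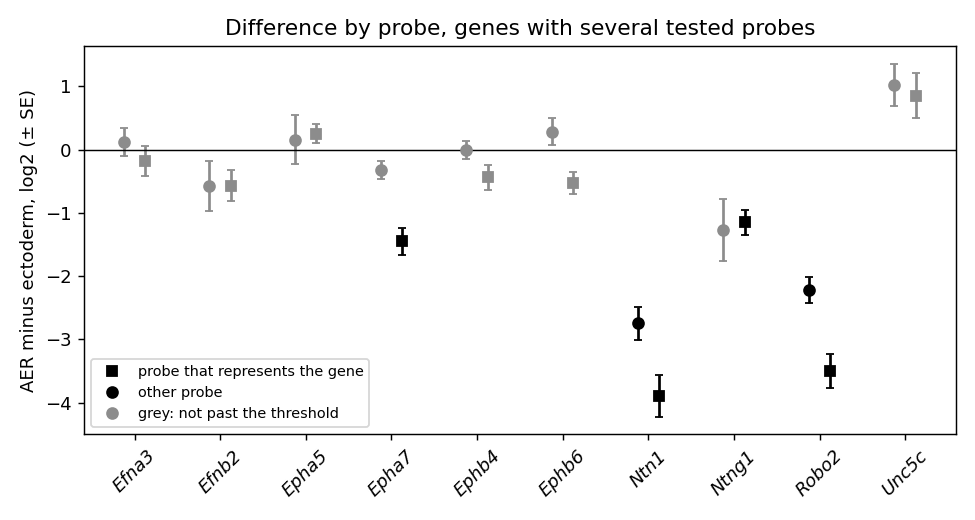
The difference between AER and ectoderm is plotted in log2 units, with its standard error, for each tested probe of the 10 member genes that have several. Squares mark the probe that represents the gene and black marks a probe that passed the test. Both probes of Ntn1 and both of Robo2 passed in the lower direction, while those of Epha7 and Ntng1 differed in call and those of Efna3 and Ephb6 in sign.

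Most of the mesenchyme, muscle and tendon genes were lower in the AER samples, and their levels stand beside the lower members. On the arrays where Robo1, Robo2, Ntn1, Ntn3, Slit1, Ephb1, Epha7 and Unc5a were high, limb mesenchyme genes averaged at least 4.06 and muscle progenitor genes at least 0.87, and where they were low, at most 1.77 and -2.48. Only 3 of the 11 muscle genes tested were above background on all AER arrays. Epithelial genes were higher on the AER arrays, where Epha2, Unc5b and Slit3 were high. Ectoderm replicate 3 was the ectoderm array with the highest Epha2 and Unc5b, the lowest Ntn1 and Robo2, the highest mean of AER genes and the lowest mean of muscle genes. Its mean of epithelial genes went the other way, at 0.32 the lowest of the ectoderm arrays (0.40 to 0.90 on the others). The part of these other cell types in the members' differences was not tested. For Epha2, Unc5b, Ntn1 and Robo2 the difference was as large or larger without that array, at 3.01, 2.70, -4.18 and -3.62.

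**Figure D4:**
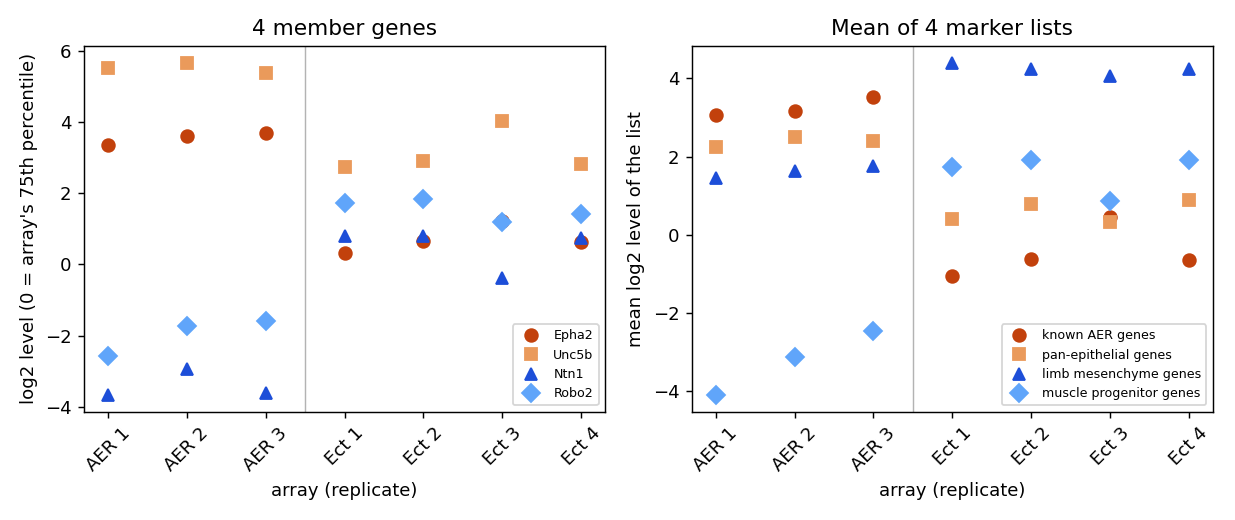
On the left the log2 levels of Epha2, Unc5b, Ntn1 and Robo2 are plotted for each of the 7 arrays (0 is the array's 75th percentile), and on the right the mean log2 level of 4 marker lists on the same arrays. Epha2, Unc5b, AER genes and epithelial genes are higher on the AER arrays, and Ntn1, Robo2, mesenchyme genes and muscle genes on the ectoderm arrays. Among ectoderm arrays replicate 3 lies nearest to the AER for the AER genes (0.44) and muscle genes (0.87) and farthest from it for the epithelial genes (0.32).

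Genes that act with these ligands and receptors were drawn from 3 lists of 63 genes, of which 56 were tested. Of these, 8 were higher in the AER and 5 lower, or 23.2%, against 15.7% of all genes. The partner lists too were chosen with earlier results of these data known, so this share is a description only. Among 28 partners of Ephs and ephrins, 3 were higher: the phosphatase gene Ptpn13 (difference 2.02, limma adjusted p = 0.00454), which acts on ephrin-B tails, the adaptor gene Grb7 (1.22, adjusted p = 0.00318) and the Rac activator gene Tiam1 (0.83, adjusted p = 0.0281). The EphA partner gene Ngef, counted among the 5 lower, was not well above background on any AER array. It met the filter through the ectoderm arrays alone, so its call rests on background values in the AER. Set against the background level, it was at least 3.16-fold lower there. The other 24 did not pass.

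Of 13 Slit and Robo partners, the 1 that passed was Srgap1, whose product binds Robo, with levels of -2.09, -1.16 and -1.75 in the AER and -2.87, -2.51, -2.44 and -2.40 in ectoderm (difference 0.89, limma adjusted p = 0.0364). Of 15 netrin partners tested, 4 were higher and 4 lower. Higher were the actin-binding gene Ablim1 (1.51, adjusted p = 0.00583), the ubiquitin ligase gene Trim9 (1.48, adjusted p = 0.00618), the netrin-G family ligand gene Lrrc4 (1.53, adjusted p = 0.0462) and Draxin, which encodes a secreted protein that binds netrin and Dcc (1.15, adjusted p = 0.0341). Trim9, Lrrc4 and Draxin were near background in ectoderm, being above it on 2, 1 and 1 of the 4 arrays. Lower were Flrt2, whose product binds Unc5 receptors (-1.91, adjusted p = 0.000905), Maged1 (-0.94, adjusted p = 0.00393) and Dapk1 (-0.88, adjusted p = 0.0468), both tied to cell death signalling by Unc5 receptors, and the neogenin ligand gene Rgma (-0.64, adjusted p = 0.0334). The median difference was 0.02, 0.11 and 0.06 in the 3 lists in that order.

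The promoters of members that went in opposite directions were read from RefSeq on GRCm38.p6, the 250 bases before the annotated start. Entries were found for 34 of 39 members, and Ntn1, Slit1, Efnb3, Dcc and Unc5d had none. The letters GGGCGG, the core of the GC box read by Sp factors, were searched on both strands together with their complement CCGCCC. They occurred in 25 of 34 member promoters and in 32.7% of 32851 promoters of the table. Members were counted by the first entry of each gene, whereas the table was counted over all entries, some genes having several. The shares and GC medians given here are thus in unlike units. By call the letters occurred in 7 of 7 members that were higher, 4 of 7 that were lower and 11 of 16 that did not pass. The untested Epha6, Epha10, Ntn4 and Ntng2 belong to no call. Median GC content was 65.2% in member promoters and 52.4% in the table, and GC-rich sequence holds these letters more often. TATAAA (with TTTATA) was in 2 of 34 member promoters and 12.4% of all, and CACGTG in 2 of 34 and 6.02%. None of the motifs contains another, and a match is a description of the sequence only. A pair that was higher and a pair that was lower are printed, with GGGCGG or CCGCCC in capitals, and Robo2 has 3 annotated starts of which the first entry is given.
Epha2, higher, chr4:141300971-141301220, plus strand: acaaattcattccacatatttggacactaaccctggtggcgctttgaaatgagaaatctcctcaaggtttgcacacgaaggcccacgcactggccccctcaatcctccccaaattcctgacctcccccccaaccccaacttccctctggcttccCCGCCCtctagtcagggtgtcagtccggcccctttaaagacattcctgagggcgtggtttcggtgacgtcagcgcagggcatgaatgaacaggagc
Unc5b, higher, chr10:60831582-60831831, minus strand: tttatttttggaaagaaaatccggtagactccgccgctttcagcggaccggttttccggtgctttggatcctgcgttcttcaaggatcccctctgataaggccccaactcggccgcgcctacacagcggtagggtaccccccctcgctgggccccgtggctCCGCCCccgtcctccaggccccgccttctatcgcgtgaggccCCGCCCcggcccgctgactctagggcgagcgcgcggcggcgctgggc
Robo2, lower, chr16:75447294-75447543, minus strand: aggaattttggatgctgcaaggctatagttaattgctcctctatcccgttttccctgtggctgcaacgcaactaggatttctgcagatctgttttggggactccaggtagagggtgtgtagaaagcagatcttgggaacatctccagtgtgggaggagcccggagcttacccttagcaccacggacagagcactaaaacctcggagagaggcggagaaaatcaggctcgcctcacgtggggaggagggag
Ntn3, lower, chr17:24209388-24209637, minus strand: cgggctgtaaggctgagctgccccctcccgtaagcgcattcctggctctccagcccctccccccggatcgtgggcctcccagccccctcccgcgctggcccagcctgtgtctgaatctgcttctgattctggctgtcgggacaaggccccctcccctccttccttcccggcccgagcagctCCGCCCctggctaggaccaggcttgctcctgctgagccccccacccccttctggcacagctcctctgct
Epha2 and Ntn3 hold 1 such match each, Unc5b 2, and Robo2 0 in this window, with 55.6%, 69.2%, 66.8% and 53.2% of bases G or C.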

How the data were processed

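RNA from 3 AER and 4 ectoderm pools, 75 ng each, was labelled with Cy3 and hybridised to 1-colour arrays, per the labels' protocols. The deposited scanner tables hold spot intensity as written by Agilent Feature Extraction 10.7.3.1, with probe positions on mm9, per the file headers. Flags for background, saturation and outlier spots were used as the deposited files give them. The authors' deposited value table holds log2 values, and limma is named, with no version, per the submitters' processing notes. Background correction by normexp followed by quantile normalization of the scanner values gave that table to within 0.000108.

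Control and outlier spots were left out, spots of a probe were averaged, and log2 processed signal was centred on each array's 75th percentile. The 75th percentile of signal ran from 296, on ectoderm replicate 3, to 662, on AER replicate 2, and 48.7 to 55.2% of spots were above background. The number of arrays limits the precision. Probes well above background on at least 3 of 7 arrays were kept (28280 of 55681), and each gene was represented by its probe with the highest mean, giving 20826 genes. The test was two-sided, with group as the only term, in limma 3.58.1 (functions lmFit and eBayes) under R 4.3.3, with Benjamini-Hochberg adjustment over all genes, or over all probes where a probe is reported. In data simulated over 20826 genes, of which 200 were changed, 38.5% of 2-fold and 85% of 4-fold changes were recovered and 7 unchanged genes were called. The real arrays called 3266 genes, and the adjustment depends on how many genes change. The recovered shares are therefore not the power of the real comparison. Replicates 2 and 4 of ectoderm were the most alike pair and were also averaged as an alternative. Alternatives covered background correction, normalization, centring, the filter, the choice of probe, slide row, replicate number, array weights and leaving out each array.

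Every member past the threshold or above background on all arrays is given by array, members at background are named, and of partner genes up to 5 in each direction per list are named. The members and gene lists were chosen with earlier results of these data known. Members were named by the array's annotation. Over the whole array, 26300 probes were named through their RefSeq transcript, 2044 by symbol and 355 by an older symbol. The other 26982 kept the name in the annotation. Of member probes with a gene to compare, 45 of 45 lie on that gene's RefSeq chromosome and strand. The probes of Ntn1, Slit1, Efnb3, Dcc and Unc5d are not among the 45, as these genes had no promoter entry to compare with. No mm9 gene models were used here, so whether a probe lies in coding sequence was not looked up.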

Additional observations from a re-analysis of the deposited data

Results flagged for a closer look

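In 3 of the 34 tested members 1 ectoderm array lay farther from the other 3 than Dixon's 95% critical value allows, and each time it was ectoderm replicate 3. Unc5b stood at 4.03 there, with the next ectoderm array at 2.91. Ntn1 stood at -0.37, with the next array at 0.74. Ephb1 stood at -1.64, with the next at -1.07. Chance alone flags about 1 in 20 groups. Each of these values lay toward the AER level, and on the same array genes known from the AER averaged 0.44, against -1.05 to -0.63 on the other ectoderm arrays. Epithelial genes went the other way, with their lowest ectoderm mean there (0.32, against 0.40 to 0.90). This array also had the lowest 75th percentile of signal of all 7, at 296. The cause was not tested. Without ectoderm replicate 3 the differences were 2.70, -4.18 and -2.58.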

How the results depend on the processing

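Of the 17 members that passed, Epha2, Ephb1, Ntn1, Robo2, Slit1 and Unc5a kept direction and call under all 22 alternatives. Setting aside centring on epithelial genes and the fits within single slide rows, 15 did so, all but Slit2 and Efnb3. The 22 are not all distinct. The authors' values and normexp with quantile normalization are the same to within 0.000108. For a gene with 1 probe the filter and probe choices leave the difference unchanged and alter only the adjusted p. Slit2 lost its call under 18 alternatives, with adjusted p up to 0.774. Against 3266 genes and 7 higher and 10 lower members, epithelial centring gave 20080 genes, 1 higher and 29 lower. Slide row 1 alone (1 AER array against 3 ectoderm arrays, the lone array being assumed to vary like the others) gave 653 genes, 2 higher and 6 lower, and row 2 alone (2 against 1) gave 1390 genes and 3 higher. The groups do not overlap for any of the 17, so their direction within a row was fixed in advance and is no check. With row as a block 16 kept their call. Leaving out each array in turn gave 2199 to 3275 genes, 6 to 7 higher and 10 to 12 lower members. Whether replicate numbers pair the samples was not settled. Same-numbered arrays deviated together with correlations of -0.03, 0.19 and 0.13. Arrays of unlike number did so with correlations from -0.26 to 0.18, a range too close to decide it. With the replicate number as a block, 2444 genes, 6 higher and 9 lower members passed, without Slit2 (0.68, adjusted p = 0.0846) and Efnb3 (-0.84, adjusted p = 0.0713). The higher share of all calls was 44.8%, and 57.4% where only probes detected on every array set the 75th percentile.

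Signs turned as follows, and the cause was not tested beyond the uniform shift that centring makes. Under epithelial centring Efna1 was -0.84, Epha4 -0.58, Epha8 -0.32, Slit2 -1.17, Slit3 -0.36, Efnb1 -1.76, Epha1 -1.10, Epha5 -1.53, Ephb2 -1.44, Ephb3 -1.66 and Unc5c -0.93. Under normexp with quantile normalization, and in the authors' values, Efna2 was 0.00065, Efna4 0.0738 and Dcc 0.27, and under normexp with the 75th percentile Efna4 was 0.0116 and Dcc 0.13. Quantile normalization alone put Dcc at 0.0463 and array weights at 0.0333. In slide row 1 Efna3 was 0.32 and Efna4 0.0560, in row 2 Efnb1 was -0.25 and Robo3 0.29, and with row as a block Efnb1 was -0.00904. Leaving out 1 array at a time, Efna3 ran from -0.40 to 0.0172 and Dcc from -0.30 to 0.0223, both positive without AER replicate 2, and Efnb1 ran from -0.13 to 0.11. None of the members named in this list other than Efna1, Epha4, Epha8, Slit2 and Slit3 had passed. The authors' values called 3750 genes, with 9 higher and 11 lower members. For members with low signal in the AER, among them Ntn1, Ephb1, Slit1 and Unc5a, the size of the difference is the least certain. Normexp was run with an offset of 50, which by construction shrinks differences where signals are about that low.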
